A study of Mus musculus with 44 samples.

Results

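The 200 probes described here were those with the most abundant signal common to liver, white adipose tissue (fat) and brain cortex of mice with and without the gene Surf1. They were 200 of the 25697 probes measured on each array. For every probe the mean of the authors' processed log2 value was taken in each tissue over both genotypes, the lowest of the 3 tissue means was kept, and the 200 probes for which this lowest mean was highest were selected. The set was therefore chosen by the levels of these probes in the tissues, and these levels and their order are given as descriptions without a test. The contrast between genotypes played no part in the choice.

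All animals were female mice of the strain B6D2F1/J, 8 to 12 months old. One genotype was Surf1+/+ (WT) and the other Surf1-/- (KO), and the labels name no other allele or agent and do not say how the gene was disrupted. Surf1 encodes a protein that helps assemble complex IV, the terminal oxidase of mitochondrial respiration. The 44 arrays held 8 WT and 8 KO livers, 6 WT and 6 KO fat samples, and 8 WT and 8 KO brain samples. Taking the number in each sample label as the number of the animal, these stood for 23 mice. More than 1 tissue was taken from 12 of them, and all 3 tissues from 9. RNA was measured on Illumina beadchips, in which the brightness of a probe reports the abundance of 1 transcript. In bulk tissue, fewer cells of a type and less RNA per cell cannot be told apart.

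Transcripts that are abundant in most mammalian tissues commonly encode ribosomal proteins, translation factors, cytoskeletal proteins, ferritin and subunits of the respiratory chain, which nearly every cell uses. Such transcripts are often taken as internal references when other genes are compared between tissues or treatments, and that use rests on their being steady. How steady the brightest shared probes were, between tissues, between arrays and between genotypes, was the question addressed here.

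No gene names are given to the 200 probes, because identifiers and values did not match in the deposited tables. Of 45 probes whose identifiers belong to markers of hepatocytes, adipocytes, neurons, astrocytes or oligodendrocytes, 1 was over 1 log2 higher in its own tissue than in both others, so the labelled tissues could not be checked against markers. The 2 probes assigned to Surf1 were detected on at most 1 of 16 arrays of a tissue and check no genotype label. None of the 45 tissue marker probes was among the 200. The same held for 16 probes assigned to other transcripts abundant in most tissues, such as Gapdh, Actb and Eef1a1, of which 0 were among the 200. Of all probes 0.778% were in the set, so a count of 0 among the 45 tissue marker probes says little. For the 16 probes this share is no fair yardstick, because such transcripts are abundant in most tissues. Of these 16, 8 were detected in all 3 tissues (50%, against 35.3% of all probes). Probes assigned to ribosomal proteins went the other way, with 14 of 71 in the set (19.7%), as described below. Each identifier was taken to mark 1 and the same probe on every array, which was not tested.

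The 200 probes were detected above background on every one of the 44 arrays, whereas 9078 of all probes passed the detection filter in all 3 tissues. The limit of the set was not a natural gap. The last probes inside it, ILMN_2935579 and ILMN_2697505, had lowest tissue means of 11.23 and 11.22, and the first probes outside it, ILMN_1251605 and ILMN_1238227, had 11.21 and 11.21 (authors' log2 values).

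ILMN_2685675 had the highest lowest-tissue mean, and its mean authors' log2 value was 14.66 in liver, 14.88 in fat and 14.69 in brain. Its non-normalized signal in liver was 29278 ± 12390 (SD, n = 16). In fat this signal was 30403 ± 5283 (SD, n = 12), and in brain it was 28194 ± 10565 (SD, n = 16). The spread of the raw signal between arrays was thus far larger than the difference between tissues. The next in order were ILMN_2690574, with 14.90, 14.93 and 14.45 in liver, fat and brain, and ILMN_2656498, with 14.76, 14.83 and 14.41. For both, brain was the tissue of the lowest mean.

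On the authors' values, which were normalized within each tissue, brain set the lowest mean for most of the set. The animal numbers lay in separated ranges, below 300 and above 500. Animals above 500 gave 4 liver arrays, 7 brain arrays and no fat array. The counts of lowest and highest tissue were not repeated with joint normalization or within 1 number range. The lowest of the 3 tissue means was in brain for 132 probes, in liver for 46 and in fat for 22. The highest was in liver for 87 probes, in fat for 86 and in brain for 27. Being bright in all 3 tissues did not place a probe at the top of each. Of the 200 probes, 59 were among the 200 brightest of liver, 107 among those of fat and 114 among those of brain, and 46 were among the 200 brightest of all 3 tissues. Counted from the brightest, the dimmest probe of the set stood within the top 3.27% of all probes for liver, the top 2.64% for fat and the top 1.69% for brain.

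The range of a probe's 3 tissue means, the highest minus the lowest, measured its steadiness between tissues. It had a median of 0.73 log2 over the 200 probes and ran from 0.04 to 3.52. It was under 0.25 log2 for 16 probes, under 0.5 for 64, over 1 for 62 and over 2 for 10. The median over all 9078 probes detected in the 3 tissues was 0.69, so on the authors' values, which were normalized within each tissue, the median range of the abundant probes was no smaller than that of the rest. With all 44 arrays normalized together instead, the median was 0.81 for the 200 probes and 1.14 for the 9078. The comparison with the other probes therefore changed with the normalization.

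The steadiest probe by this measure was ILMN_3089574, with tissue means of 12.06, 12.03 and 12.02 in liver, fat and brain, a range of 0.04 log2. ILMN_2793260 had 12.09, 12.08 and 12.15, a range of 0.07, and ILMN_2820877 had 13.60, 13.68 and 13.66, a range of 0.08. These ranges changed with the normalization. With joint normalization the range was 0.93 log2 for ILMN_3089574, 1.05 for ILMN_2793260 and 1.18 for ILMN_2820877. Single arrays also differed more than the tissue means did, as ILMN_3089574 ran from 11.54 through a median of 12.29 to 12.46 over the 16 brain arrays and from 12.09 through 12.32 to 12.53 over the 16 liver arrays (normalized log2 signal). The tissue means also mixed the number ranges, whose normalized means follow as below 300 and above 500. ILMN_3089574 had 12.29 and 12.41 in liver and 11.98 and 12.32 in brain. ILMN_2793260 had 12.45 and 12.06 in liver and 12.03 and 12.56 in brain. ILMN_2820877 had 13.84 and 13.90 in liver and 13.97 and 13.44 in brain.

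The least steady probe between tissues was ILMN_1213615, with tissue means of 15.21 in liver, 14.76 in fat and 11.70 in brain, a range of 3.52 log2. Its non-normalized signal in liver was 40413 ± 12963 (SD, n = 16). Fat had 28543 ± 5118 (SD, n = 12), while brain had 3784 ± 1365 (SD, n = 16). On the normalized scale its highest brain array, at 12.61, lay below its lowest liver array, at 15.07, and its lowest fat array, at 14.45. ILMN_2589583 had means of 15.01, 15.24 and 12.43, a range of 2.81, and ILMN_3025989 had 14.01, 13.21 and 11.24, a range of 2.76. With joint normalization the ranges of these probes were 2.63, 1.93 and 1.77. Of the 10 probes with a range over 2 log2 on the authors' values, brain was lowest for 7, liver for 2 and fat for 1. Brain was highest for 0.

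Across the 200 probes the Pearson correlation of the tissue means was 0.75 between liver and fat, 0.60 between liver and brain and 0.71 between fat and brain. Over all 25697 probes it was 0.77, 0.61 and 0.74. These correlations are across probes, which share arrays and normalization and are not independent replicates, so they carry no test.

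Within a group of replicate arrays, the abundant probes varied less than the other probes in liver and fat but hardly so in brain. The median within-group SD on the normalized log2 scale was 0.20 in liver against 0.36 over the 11117 probes tested there, and 0.18 in fat against 0.27 over 12468. In brain it was 0.36 against 0.38 over 12648 probes. The groups of liver and brain held animals from separated number ranges, below 300 and above 500, and within these ranges the spread was smaller. In brain the median SD of the set was 0.33 among animals below 300 and 0.11 among those above 500, against 0.35 and 0.19 for all probes tested. In liver it was 0.16 and 0.10, against 0.26 and 0.26. All fat samples came from animals below 300.

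ILMN_2630993 had the smallest SD pooled over the 3 tissues, 0.11 log2, with values from 13.93 through a median of 14.18 to 14.37 in liver, from 13.75 through 14.05 to 14.29 in fat and from 13.70 through 13.90 to 14.07 in brain. It was followed by ILMN_3078706, with a pooled SD of 0.12, and ILMN_2690574, with 0.13. ILMN_2630993 and ILMN_2690574 were also among the probes of highest lowest-tissue mean, at ranks 9 and 2. For such probes the spread is bounded by the normalization, which gives each rank on an array a fixed value. ILMN_2690574 took 6 different values over the 16 brain arrays, at ranks 2 to 7. ILMN_2685675 took 5 different values there, at ranks 1 to 6, and read its highest, 14.97, on 8 of the arrays. A small SD at the top of the scale therefore describes a steady rank rather than a steady amount. ILMN_3078706 had a small spread between arrays beside a range of 0.98 log2 between tissues, so the 2 kinds of steadiness did not go together for it.

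ILMN_2735084 had the largest pooled SD, 0.81 log2, followed by ILMN_1229211 with 0.64 and ILMN_2751486 with 0.57. In brain ILMN_2735084 ran from 10.43 through a median of 11.09 to 12.63 over the 9 animals below 300, and from 12.53 through 12.85 to 13.20 over the 7 above 500. In liver it ran from 11.58 through 12.96 to 13.33 below 300 and from 13.53 to 14.25 above 500. In fat it ran from 12.12 through 12.87 to 13.44. The ranges did not overlap in liver and overlapped in brain through a single array, Brain_WT_165 at 12.63.

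The 200 probes held an uneven share of the summed non-normalized signal. In liver this share was 12.07% ± 0.78 (SD, n = 8) for WT and 12.92% ± 1.08 (SD, n = 8) for KO. In fat it was 15.71% ± 0.60 (SD, n = 6) for WT and 15.89% ± 0.45 (SD, n = 6) for KO. In brain it was 15.80% ± 3.37 (SD, n = 8) for WT and 15.16% ± 2.55 (SD, n = 8) for KO. The genotypes of each tissue overlapped over all arrays. In liver they did not overlap below 300, where WT ran from 12.18% to 12.68% and KO from 12.98% to 14.28%. Above 500 the WT livers had 10.4% and 11.42%, and the KO livers had 10.87% and 11.86%. This split was looked at after the values were seen and was not tested. The signal was not background subtracted. Below 300 its median over all probes was 167.4 to 201.5 on WT livers and 134.7 to 170.2 on KO livers. The part of this in the share was not tested. The brain arrays did not form 1 group. The 7 brain arrays above 500 had shares of 12.69% to 13.60%, and Brain_WT_135, an animal below 300, had 13.34%. The other brain arrays below 300 ran from 15.19% to 20.78%, and the highest were Brain_WT_138 at 20.78%, Brain_WT_136 at 20.12% and Brain_Surf1_KO_175 at 20.06%. These 3 arrays and Brain_WT_165, at 17.43%, were also the 4 brain arrays with the fewest probes detected, 42.8% to 45.9% against 48.8% to 52.9% on the others. In liver the 4 arrays above 500 had a median signal over the set of 1164 to 2689, against 6572 to 12246 below 300. The part of array quality in the results below was not tested.

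In KO against WT liver, none of the 200 probes changed past the threshold (limma, Benjamini-Hochberg adjusted p under 0.05 over all probes tested), and neither did any other probe, since 0 of 11117 were called (0%). Most differences were small and positive. The median KO minus WT was 0.04 log2, and 128 of 200 probes were above 0 (64%), beside a median of 0.01 and 51.9% over all probes tested. The median size of a difference was 0.08 against 0.12. At an unadjusted p under 0.05, 16 of the 200 were higher in KO (8%) and 1 lower (0.5%), where the shares over all probes were 3.67% and 2.34%. The 200 probes move together from array to array, so their count is not a count of independent probes, and the count at this unadjusted level ran from 2 in 1 fit over all 44 arrays to 33 with array weights, beside 6.69% and 14.4% of all probes. The 2 genotypes overlapped for all 200 probes, and 0.036% of all probes did not overlap.

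ILMN_2671517 had the smallest p among the probes higher in KO liver, with WT values from 11.45 through a median of 11.86 to 12.09 and KO values from 11.84 through 12.19 to 12.47. The groups overlapped, and KO minus WT was 0.35 log2 (SE 0.10, limma adjusted p = 0.355), or 1.27-fold. ILMN_3163340 ran from 11.48 through 11.56 to 11.91 in WT and from 11.76 through 11.79 to 11.92 in KO, a difference of 0.23 (SE 0.08, limma adjusted p = 0.502). A single WT array, Liver_WT_135 at 11.91, made these groups overlap. Lower in KO was ILMN_2460572, with 14.43 through 14.67 to 14.90 in WT and 14.35 through 14.41 to 14.60 in KO, a difference of -0.23 (SE 0.08, limma adjusted p = 0.492). For ILMN_2816736 KO minus WT was -0.22 (SE 0.11, limma adjusted p = 0.831). With arrays weighted by their estimated precision, 3 of the 200 passed, beside 192 of all 11117 probes (1.73%). These were ILMN_2460572 at -0.26 (limma adjusted p = 0.0315), ILMN_3163340 at 0.29 (limma adjusted p = 0.0189) and ILMN_2949266 at 0.33 (limma adjusted p = 0.0293).

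In fat, 0 of the 200 probes changed past the threshold, and 5 of 12468 probes did (0.0401%). The median KO minus WT over the 200 was 0.05 log2, with 122 above 0 (61%), beside 0.02 and 52.6% over all probes tested, and the median size of a difference was 0.10 against 0.15. At an unadjusted p under 0.05, 11 were higher in KO (5.5%) and 4 lower (2%), where the shares over all probes were 6.73% and 7.9%. Their sum of 15 became 9 without Fat_WT_139 and 36 without Fat_WT_165 (4.5% and 18%), beside 11.1% and 13.2% of all probes. Higher in KO was ILMN_2690077, with WT values from 12.59 through 12.99 to 13.09 and KO values from 13.06 through 13.29 to 13.41, a difference of 0.38 (SE 0.11, limma adjusted p = 0.133), or 1.30-fold. ILMN_2662825 ran from 12.62 through 12.70 to 12.96 in WT and from 12.86 through 13.08 to 13.41 in KO, a difference of 0.34 (SE 0.11, limma adjusted p = 0.156). Lower in KO were ILMN_2725647, by -0.29 (SE 0.11, limma adjusted p = 0.257), and ILMN_1222674, by -0.22 (SE 0.09, limma adjusted p = 0.283). All 4 had overlapping groups.

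The genotypes did not overlap in fat for 2 of the 200 probes (1%), beside 0.77% of all probes, and both were higher in KO. They are named because they are so few, after their values were seen. ILMN_2619380 ran from 12.58 through 12.86 to 12.95 in WT and from 12.96 through 13.04 to 13.31 in KO, a difference of 0.25 (SE 0.09, limma adjusted p = 0.233). ILMN_2646166 ran from 11.26 through 11.53 to 11.58 in WT and from 11.68 through 11.73 to 11.85 in KO, a difference of 0.27 (SE 0.09, limma adjusted p = 0.175). In liver the same probes differed by -0.04 (SE 0.07) and -0.09 (SE 0.07), and in brain by -0.06 (SE 0.14) and -0.18 (SE 0.22). Without Fat_WT_136, 1 of the 200 passed, ILMN_2614706 at 0.54 log2 (limma adjusted p = 0.0174), beside 427 of all 12468 probes (3.42%). On all fat arrays its difference was 0.43 (SE 0.13, limma adjusted p = 0.161), the largest of the set in fat.

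In brain cortex, 0 of the 200 probes changed past the threshold, like 0 of 12648 probes in all (0%). Here the median KO minus WT was -0.01 log2, with 93 of 200 above 0 (46.5%), beside 0.00 and 50.6% over all probes tested, and the median size of a difference was 0.07 against 0.12. None of the 200 had an unadjusted p under 0.05 in either direction, where the shares over all probes were 1.53% higher and 0.941% lower. No probe of the set separated the genotypes, nor did any probe tested (0%). The sign of the median changed with the arrays used, and it was 0.06 without the 4 arrays with the fewest detected probes, with 133 above 0, and -0.05 without Brain_WT_135, with 68 above 0.

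The brain probes of smallest p had groups that overlapped. ILMN_1253361 ran from 11.29 through 12.49 to 12.81 in WT and from 12.22 through 12.57 to 12.75 in KO, with KO above WT by 0.29 (SE 0.20). The difference was 0.45 among animals below 300 and -0.01 among those above 500. ILMN_2849036 differed by 0.25 (SE 0.21), and by 0.23 and 0.08 in the respective ranges. ILMN_3025989, the probe with the third largest range between tissues, ran from 11.30 through 11.39 to 11.63 in WT and from 11.08 through 11.29 to 11.49 in KO, a difference of -0.17 (SE 0.10), with -0.17 and -0.15 in the ranges. ILMN_2946959 differed by -0.22 (SE 0.17), with -0.41 below 300 and 0.08 above 500. All 4 of these brain differences had a limma adjusted p of 0.9996. Among the animals above 500 alone, 1 of the 200 passed, ILMN_2875089 at -0.47 (limma adjusted p = 0.0149), beside 25 of all 12648 probes (0.198%). Below 300 the direction of ILMN_2875089 was the other way, with WT arrays from 12.82 to 13.16 and KO arrays from 13.12 to 13.26. Over all brain arrays its difference was -0.09 (SE 0.12).

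A difference that did not pass the threshold may still be of some size, and the 95% intervals of the fit give its bounds. In liver the interval lay within 0.5 log2 of 0 for 179 of the 200 probes, where 47.8% of all probes had so narrow an interval, and within 1 log2 for all 200 (94.9% of all probes). In fat the counts were 179 and 200, with 51.9% and 92.7% of all probes. In brain they were 119 and 198, with 44.9% and 94% of all probes. The 200 were bright, and their standard errors were smaller, with a median of 0.10 in liver, where all probes tested had 0.18, of 0.11 in fat, where they had 0.16, and of 0.18 in brain, where they had 0.19. For most of the set a change of more than 1.41-fold in either direction therefore lay outside the interval in liver and fat, and for fewer probes in brain. These bounds hold for the normalized values. For the brightest probes, such values describe rank on an array rather than amount.

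The series is titled for tissue-dependent effects, and whether KO minus WT differed between tissues was tested directly. For 0 of the 200 probes did it pass the threshold between liver and fat, fat and brain, or liver and brain (limma interaction). Number range was not in this fit. All fat samples came from animals below 300, while liver and brain held both ranges, so the tissues were compared over unlike animals. The fit also pooled the spread of all tissues, and the median within-group SD was 0.36 in brain against 0.20 in liver and 0.18 in fat. In such a fit the KO against WT counts at an unadjusted p under 0.05 were 2 instead of 17 in liver (6.69% and 6.01% of all probes). In fat they were 10 instead of 15 (11% and 14.6%). Over all probes detected in both tissues of a pair, 0.487% passed between liver and fat, 0.134% between fat and brain and 0.0107% between liver and brain. ILMN_2458185 had the smallest p for the first 2 pairs. It ran from 11.59 through 11.79 to 12.07 in WT fat and from 11.99 through 12.19 to 12.31 in KO fat, and KO minus WT was 0.33 in fat (SE 0.10), -0.08 in liver (SE 0.08) and -0.10 in brain (SE 0.10). The difference was -0.41 for liver minus fat (SE 0.13, limma adjusted p = 0.158) and 0.43 for fat minus brain (SE 0.13, limma adjusted p = 0.242).

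The second probe for liver minus fat was ILMN_2614706, at -0.47 (SE 0.17, limma adjusted p = 0.269), and for fat minus brain ILMN_2690077, at 0.53 (SE 0.23, limma adjusted p = 0.622). In each of these pairs the fat side held the largest KO minus WT. Between liver and brain the smallest p belonged to ILMN_2688607, with a difference of 0.30 (SE 0.15), and to ILMN_2793260, with -0.33 (SE 0.18), both with a limma adjusted p of 0.994. The latter was also among the steadiest probes between tissues.

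The number range of the animal went with larger differences than the genotype in both tissues that had both ranges. The median size of the difference over the 200 was 0.24 log2 in liver and 0.44 in brain, against 0.08 and 0.07 for genotype, beside 0.40 and 0.39 over all probes tested. Both genotypes were present in each range, and genotype was in the fit. The sources used here do not say what the numbers stand for. In liver, 69 of the 200 probes were higher in animals above 500 (34.5%, against 20.5% of all probes) and 34 were lower (17%, against 29.7%), by limma at an adjusted p under 0.05. The 4 liver arrays above 500 also had fewer probes detected, 31.3% to 40.8% against 43.1% to 46.7% below 300, and a lower highest signal, 20281 to 32907 against 45051 to 54174, and the part of this in the counts was not tested. The median difference was 0.10 log2, beside -0.09 over all probes tested. In brain, 45 were higher (22.5%, against 26.5%) and 84 were lower (42%, against 25.6%), with a median of -0.19 beside -0.01. The animals above 500 were different animals in the 2 tissues, with none in both. With the 4 brain arrays of lowest detection left out, 43 were higher (21.5%, against 29.1% of all probes) and 64 lower (32%, against 28.3%), so the share of lower probes came near that of all probes. Without Brain_WT_135, 48 were higher (24%, against 28.6%) and 96 lower (48%, against 27.6%).

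In liver ILMN_1257299 ran from 11.23 through a median of 11.32 to 11.53 over the 12 arrays below 300, and read 11.99, 11.84, 11.90 and 11.96 in Liver_WT_581, Liver_WT_679, Liver_Surf1_KO_597 and Liver_Surf1_KO_598. It was higher above 500 by 0.58 log2 (SE 0.07, limma adjusted p = 6.51e-06), or 1.49-fold. ILMN_1252147 was higher by 0.60 (SE 0.08, limma adjusted p = 1.32e-05). ILMN_2861787 ran from 12.19 through 12.32 to 12.51 below 300 and read 11.76, 11.67, 11.65 and 11.70 in the same 4 arrays. It differed by -0.64 log2 (SE 0.07, limma adjusted p = 2.87e-06), while for ILMN_2631003 the difference was -0.78 (SE 0.10, limma adjusted p = 6.38e-06). The ranges did not overlap for these 4 probes, and both genotypes lay on the same side. The 4 were chosen by their p in this contrast, so their separation is only a description, and its share over all probes was not counted.

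The differences in brain were larger. ILMN_1229211 ran from 10.85 through 11.32 to 12.11 over the 9 arrays below 300 and from 12.59 through 12.79 to 12.93 over the 7 above 500. It was higher above 500 by 1.49 log2 (SE 0.15, limma adjusted p = 9.35e-07), or 2.80-fold. ILMN_2751486 ran from 11.22 through 12.06 to 12.74 and from 13.29 through 13.50 to 13.59, and was higher by 1.48 (SE 0.16, limma adjusted p = 1.78e-06). In both probes the highest array below 300 was Brain_WT_135, at 12.11 and 12.74. ILMN_2855066 ran from 13.14 through 13.68 to 13.85 below 300 and from 12.44 through 12.63 to 12.75 above 500, and differed by -1.02 log2 (SE 0.11, limma adjusted p = 1.59e-06). ILMN_1220547 differed by -0.97 (SE 0.11, limma adjusted p = 2.80e-06), with values from 12.49 through 13.15 to 13.29 below 300 and from 12.04 through 12.12 to 12.16 above.

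In liver and brain the probes of the set moved together along the number ranges and along detection. The first principal component of the 200 probes took up 53.2% of their variance in liver, where that of all probes tested took up 44.6%. In fat it took up 33.8% beside 30.5%, and in brain 75% beside 54.5%. In brain the arrays above 500 had scores of -4.94 to -3.93, Brain_WT_135 had -5.35, and the other arrays below 300 had 0.74 to 7.66. The 4 highest brain scores, 6.05 to 7.66, belonged to the 4 arrays with the fewest probes detected, and the next was 4.43. In liver the arrays above 500 had 3.30 to 3.94, and those below 300 had -4.69 to 0.26. The lowest were Liver_WT_135, Liver_WT_136 and Liver_Surf1_KO_237, the last at -2.77. They were also the liver arrays with the most probes detected, 45.6% to 46.7%. The liver arrays above 500 had the fewest, 31.3% to 40.8%. In fat Fat_WT_165 stood highest, at 4.0, above Fat_Surf1_KO_241 at 2.16. The level of 114 of the 200 probes in brain correlated with the component at r above 0.8 (78 probes) or below -0.8 (36), as did 55 in liver and 38 in fat. These correlations follow from how the component is built and are given as a description.

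The identifiers of the set were not spread evenly over the deposited table, whose rows ran mostly in alphabetical order of the assigned symbols (91.2% of neighbouring rows). The following counts were made after the values were seen. Of 71 probes assigned to cytosolic ribosomal proteins, 14 were in the set (19.7%, against 0.778% of all probes). The stretch of 110 rows in which most ribosomal protein names stood held 19 probes of the set (17.3%, against 0.707% of the other rows). Rows 19801 to 19900, which overlap that stretch, held 26, and the densest elsewhere were rows 14801 to 14900 with 12 and rows 5801 to 5900 with 9. Of 257 stretches of 100 rows, 171 held none, and 103 of the 200 probes had another of the set within 5 rows. Whether values and identifiers were displaced against each other was not tested.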

How the data were processed

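The authors deposited non-normalized intensities of 25697 probes on 44 arrays without background subtraction (39.4 to 54174), each beside a detection score, and processed log2 values. The submitters' processing notes name lumi without a version. The deposited score was taken to be the complement of the detection p, since its rank correlation with signal was 0.966 or higher on every array. In the authors' deposited log2 table each tissue had been quantile normalized on its own, as sorted values differed by at most 0.0166 within a tissue against 1.28 over all arrays. Whether a plain log2 was used, and the scanner, slides and scan dates, are unknown here.

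Members and levels came from the authors' log2 values. Tests used R 4.3.3, limma 3.58.1 and statmod 1.5.0. Intensities were corrected by neqc (offset 16) and quantile normalized within tissue. Tested probes had a detection p under 0.05 on 8 or more arrays in liver and brain, or 6 or more in fat, and every such probe was tested on its own, 1 per identifier. Fits used limma's lmFit and eBayes (trend on intensity), two-sided, Benjamini-Hochberg over all tested probes, threshold 0.05. Interactions came from 1 fit over 44 arrays. Samples were grouped by tissue and genotype as labelled. The labels give each sample a number, taken as its animal, and p-values measure the spread between these samples. The number of arrays limits the precision.

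The set and lists were chosen with earlier results of these data known. Named were the probes with the highest lowest-tissue mean, those beside the limit of 200, those with the smallest and largest range and SD, and those with the smallest p in each comparison. Chosen after values were seen were the interval counts, the principal components, the counts along rows, the brain arrays left out, and the probes named because they did not overlap or passed under an alternative. Array weights, joint normalization, no filter, no background correction, the authors' values, 1 fit over 44 arrays, number ranges and each array left out were tried.

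If the sample numbers are those of animals, equal numbers in different tissues pair samples of 1 animal. Over all probes tested, deviations from the group means correlated between the paired liver and fat samples of 12 animals with a median r of 0.10 (-0.21 to 0.42). For 9 animals the median r was 0.01 for fat and brain and 0.01 for liver and brain. Over the 200 probes alone the medians were 0.0015, 0.029 and -0.032.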

Additional observations from a re-analysis of the deposited data

Results flagged for a closer look

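Among 72 group values examined (4 measures of each array, and the probes named for KO against WT or for differences between tissues, in each group of 6 or 8 arrays), 4 had a single sample far from the others of its group, by Dixon's test at its 95% critical value. Chance flags about 1 in 20 groups, so as many as this can arise by chance. Probes named only for their level or number range were not examined.

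The share of summed signal held by the 200 probes was 16.7428% in Fat_Surf1_KO_241, with the other KO fat arrays at 15.4015% to 15.8586%. The share of all probes detected was 45.6979% in Brain_Surf1_KO_175, against 49.5155% to 51.4963% on the other KO brain arrays. ILMN_3163340 read 11.9064 log2 in Liver_WT_135, with the other WT livers at 11.481 to 11.6775. ILMN_1222674 read 12.1501 log2 in Fat_Surf1_KO_241, with the other KO fat arrays at 12.347 to 12.4239. For 0 of the 200 probes did the KO effect differ between tissues past the threshold.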

How the results depend on the processing

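Over 881 values from alternative settings, 857 kept their direction and side of the threshold, or moved by less than the spread between replicates or 1.5 times. The number of the 200 probes past the threshold for KO against WT was 0 in each tissue, and became 3 in liver with array weights and 1 in brain with animals above 500 alone. Leaving out each array in turn gave 0 in liver and brain and 0 to 1 in fat, with 1 without Fat_WT_136. ILMN_3163340 (0.29) and ILMN_2460572 (-0.26) passed in liver with array weights. Of the brain differences, ILMN_1253361 reversed to -0.0116 with animals above 500 alone and to -0.0384 without the 4 arrays with the fewest detected probes. ILMN_2849036 reversed to -0.0412 without those 4 arrays, and ILMN_2946959 to 0.0326 without them, 0.00589 with array weights and 0.0770 above 500 alone. The cause was not tested.

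Counts at an unadjusted p under 0.05 were the least stable. Each is followed by the share of all tested probes under the same setting. In liver 17 (6.01%) became 33 with array weights (14.4%), 32 with number range as a covariate (10.9%), 26 below 300 alone (10.5%), 9 above 500 alone (6.44%) and 2 in 1 fit over all arrays (6.69%), and 10 or 11 without Liver_Surf1_KO_241 (5.01%) or Liver_Surf1_KO_175 (5.38%). In fat 15 (14.6%) became 9 without Fat_WT_139 (11.1%) and 36 without Fat_WT_165 (13.2%). In brain 0 (2.47%) became 10 above 500 alone (7.49%), 7 without the 4 arrays (1.85%), and 1 with array weights (4.35%) or the covariate (4.47%). In brain the median KO minus WT of the set ran from -0.05 to 0.06 over 27 alternatives. The number-range counts were 57 to 70 higher and 23 to 35 lower in liver, and 38 to 48 higher and 64 to 96 lower in brain.

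With the animal as a random replicate block, which paired the tissues of an animal (consensus correlation 0.10, 0.10 and 0.11), 0 of the 200 probes had a KO effect that differed between tissues, as without it. The probes named for such differences kept their direction and side of the threshold. KO against WT within a tissue and the number ranges were not refitted with the block. Joint normalization kept 87.5% of the 200 probes, and lists chosen on WT or KO arrays alone shared 186, or 93% of each. The scale between tissues rests on normalization.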
